A study of Mus musculus with 20 samples.

Results

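Transcript levels were compared between growing oocytes (GO) of Chd4 knockout mice and of their controls at postnatal day 10 (P10). In knockout oocytes (GcKO) the genotype was Chd4 f/f; Gdf9-iCre Tg/+, and in control oocytes (Gctrl) it was Chd4 f/f with no Cre transgene. The Gdf9 promoter is active in oocytes, so iCre deletes the floxed allele there and not in the somatic cells of the ovary. Both groups carried the floxed alleles on a mixed background, C57BL/6 X 129S1/Sv crossed also with FVB/NJ, so loss of Chd4 and presence of Cre cannot be told apart. Each group had 2 libraries, made from total RNA with a kit for low input. The labels do not say that the 2 libraries came from separate animals, and the p-values measure the spread between libraries. The 12937 genes described here are those with a TPM of at least 1 (transcripts per 1000000, a length-scaled share of a library) in at least 2 of these 4 libraries, out of 53722 genes in the table. In bulk samples of this kind, fewer cells of a type and less RNA per cell cannot be told apart.

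CHD4 is the ATPase motor of NuRD, a complex that slides nucleosomes and removes acetyl groups from histones, and it is known mainly for keeping genes silent. Growing oocytes leave the primordial pool, enlarge inside a follicle, lay down the zona pellucida and store mRNA and protein for the embryo. Meiotic prophase genes are normally active before birth and are turned down as the oocyte enters its long arrest.

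The libraries carried 19.1 and 15.5 M recovered reads in GcKO, against 20.8 and 19.8 M in Gctrl (1 M is 1000000 reads). Genes at TPM of at least 1 numbered 13517 and 11980 in the GcKO libraries, against 11579 and 11061 in the Gctrl libraries. Of the 12937 genes, 8022 reached TPM 1 in all 4 libraries, 1227 passed only through GcKO and 540 only through Gctrl, so these last 2 sets had to differ. Across genes, Pearson's r of log2(TPM + 1) was 0.872 between the GcKO libraries, 0.924 between the Gctrl libraries and 0.746 to 0.758 between a GcKO and a Gctrl library.

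The label of growing oocytes was set against oocyte markers. Gdf9, an oocyte growth factor that acts on granulosa cells, had 750.2 and 734 TPM in GcKO, against 720.3 and 656 TPM in Gctrl. Zp3, a protein of the egg coat, had 2131 and 2177 TPM in GcKO, against 1376 and 1359.9 TPM in Gctrl. Ddx4, a germ cell helicase, had 109 and 199 TPM in GcKO, against 186 and 185 TPM in Gctrl. These markers were high in each of the 4 libraries. Other oocyte markers, with values given below, differed between the groups. Bmp15 and Oosp1 were lower in GcKO, and Figla, Nobox, Nlrp5 and Dppa3 were higher. Of the defining markers of other ovarian cells, many were at or near 0 and some were not. The granulosa genes Foxl2, Fshr, Amh and Amhr2 were under TPM 0.1 in each library except for Foxl2 at 4.69 TPM in GcKO replicate 2. The endothelial gene Pecam1 had 98.6 and 2.30 TPM in GcKO, against 3.23 and 1.01 TPM in Gctrl, while Cdh5 was listed at 0 in all 4. Its GcKO value therefore came from replicate 1. Nr5a2, a nuclear receptor of granulosa cells, had 13.2 and 25.4 TPM in GcKO, against 14.9 and 23.7 TPM in Gctrl, and Hsd3b1, a steroidogenic enzyme, had 23.2 and 11.1 TPM in GcKO, against 7.88 and 3.97 TPM in Gctrl; neither passed the test described below. Clu (clusterin) had 7.33 and 8.93 TPM and the endothelial receptor Tie1 1.44 and 1.29 TPM in GcKO, and both were listed at 0 in Gctrl and passed (limma adjusted p = 0.00339 and 0.0299). The summed level of 28 granulosa and supporting cell genes was 93.4 and 104 TPM in GcKO, against 102 and 93.0 TPM in Gctrl, and these ranges overlapped. That of 21 theca and stromal genes was 36.9 and 20.97 TPM in GcKO, against 15.7 and 6.93 TPM in Gctrl, that of 14 endothelial genes was 109 and 4.27 TPM against 6.66 and 5.94 TPM, and that of 22 blood and immune genes was 6.18 and 1.05 TPM against 3.31 and 0.884 TPM. The sum of 12 surface epithelium genes was 213 and 256 TPM in GcKO, against 26.8 and 34.6 TPM in Gctrl, most of it Epcam in GcKO. That of 24 muscle genes was 225 and 164 TPM in GcKO, against 76.2 and 135 TPM in Gctrl. Of these muscle genes Myl4 alone passed, and it was lower in GcKO (limma adjusted p = 0.0141). The part of other cells in the results below was not tested.

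Many genes differed between GcKO and Gctrl, in both directions. In limma on log2(TPM + 1), adjusted over 20470 genes with a threshold of 0.05, 2806 of the 12937 genes (21.7%) passed, 1852 higher (14.3%) and 954 lower (7.37%) in GcKO. Among the 8022 genes that reached TPM 1 in all 4 libraries, 797 were higher (9.94%) and 472 lower (5.88%). The log2 difference, GcKO minus Gctrl, was over 1 in 1687 of the genes called higher and under -1 in 881 of those called lower. None of the 2806 called genes had overlapping groups, and groups did not overlap in 58.5% of all 12937 genes. TPM is a share of a fixed total, and the median log2 difference over all 12937 genes was 0.20. Scaling by median of ratios moved that median to -0.04 and gave 1635 higher and 1451 lower, so that 52.98% of calls were higher, against 66.0% as deposited. Quantile normalization gave 53.2%. With median-of-ratios scaling, 1525 of the genes called higher and all 954 called lower kept their call and direction, and none was called in the opposite one. Without Gctrl replicate 1 the count was 1834, with 594 of them lower, and without Gctrl replicate 2 the number lower was 597.

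**Figure D1:**
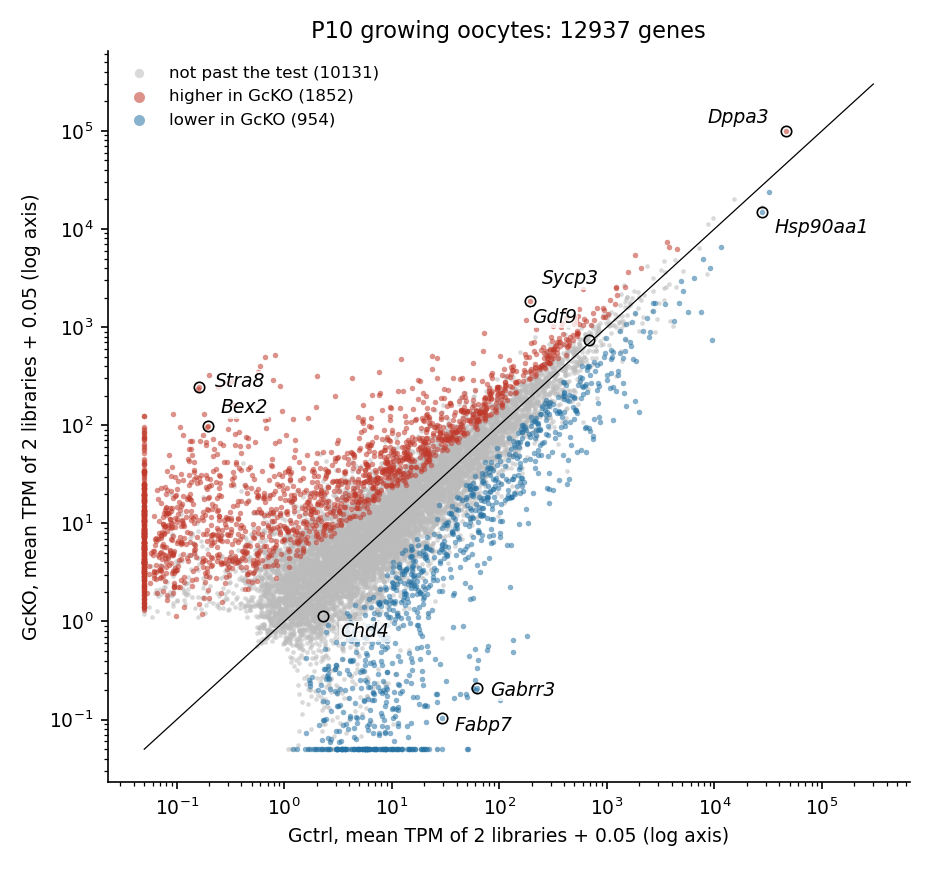
Mean TPM of the 2 GcKO libraries (vertical) against that of the 2 Gctrl libraries (horizontal), both on log axes after adding 0.05, for 12937 genes. Red points are the 1852 genes called higher in GcKO, blue points the 954 called lower and grey points the rest, and the line marks equal levels. Genes with no reads in Gctrl stand in a column at the left edge, and Gdf9 lies close to the line.

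The targeted gene was low in every library. Chd4 (chr6:125095981-125130591, GRCm38) had 0.631 and 1.54 TPM in GcKO, against 1.56 and 2.96 TPM in Gctrl. These values rest on 38 and 80 recovered reads in GcKO, against 95 and 177 in Gctrl. Both GcKO values lay below both Gctrl values, GcKO replicate 2 only just (log2 difference -0.65, SE 0.50, limma adjusted p = 0.488), and the gene did not pass the test. The deleted exons are not given in the labels, and reads over the remaining exons count toward this value. Of 15 listed NuRD genes, 12 were among those described. Rbbp7, a histone-binding subunit, fell, with 1785 and 1741 TPM in GcKO, against 3009 and 2356 TPM in Gctrl (log2 difference -0.59, SE 0.18, limma adjusted p = 0.0429). Hdac1, a deacetylase subunit, rose, with 18.02 and 10.4 TPM in GcKO, against 6.65 and 2.80 TPM in Gctrl (log2 difference 1.45, SE 0.44, limma adjusted p = 0.0469). Both calls depended on single libraries: they were lost for Rbbp7 without GcKO replicate 1, GcKO replicate 2 or Gctrl replicate 1 (adjusted p = 0.115 to 0.292) and for Hdac1 without GcKO replicate 1 or Gctrl replicate 2 (adjusted p = 0.225 to 0.307), and that of Hdac1 also with median-of-ratios scaling (adjusted p = 0.0882). Among 16 other remodelling ATPases, 12 were described. Smarca2, Smarcad1 and Chd9 fell and none rose, beside 7.37% lower and 14.3% higher over all genes described. Smarca2, a BAF motor, had 94.2 and 108 TPM in GcKO, against 242 and 221 TPM in Gctrl (log2 difference -1.19, SE 0.28, limma adjusted p = 0.0132). Chd9, a relative of Chd4, had 2.85 and 3.84 TPM in GcKO, against 16.9 and 10.1 TPM in Gctrl (log2 difference -1.70, SE 0.48, limma adjusted p = 0.0354). Calls were lost for Smarca2 without Gctrl replicate 1 (adjusted p = 0.0685), Smarcad1 without GcKO replicate 2 or Gctrl replicate 1 (adjusted p = 0.1 to 0.115) and Chd9 without any 1 of the 4 libraries (adjusted p = 0.0537 to 0.212).

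Predicted gene models left aside, the largest rise belonged to Stra8, the retinoic acid target that licenses entry into meiosis. The choice was among called genes averaging at least 5 TPM in 1 group, with no overlap between groups. Stra8 (chr6:34920163-34939344) had 248 and 239 TPM in GcKO, against 0.146 and 0.0743 TPM in Gctrl. A transcript near 0 in controls was thus abundant in both knockout libraries (log2 difference 7.78, SE 1.07, limma adjusted p = 0.000491). Zfp119b, a zinc finger gene of the KRAB class, had 291 and 293 TPM in GcKO, against 0.851 and 0.618 TPM in Gctrl (log2 difference 7.40, SE 0.54, limma adjusted p = 5.25e-06). The X-linked genes Bex3 and Bex2, small adaptor-like proteins named for expression in brain, followed the same order. Bex3 had 339.5 and 293 TPM in GcKO, against 1.62 and 2.34 TPM in Gctrl (log2 difference 6.74, SE 0.30, limma adjusted p = 3.92e-07). Bex2 had 111 and 86.1 TPM in GcKO, against 0.292 and 0 TPM in Gctrl (log2 difference 6.44, SE 0.85, limma adjusted p = 0.000372). Both GcKO libraries were above both Gctrl libraries for each of them, as the choice required. Cyba, the p22phox subunit of NADPH oxidase, had 65.6 and 92.6 TPM in GcKO, against 0 and 0.129 TPM in Gctrl (log2 difference 6.22, SE 1.16, limma adjusted p = 0.00352). Rhox2d, Usp17lb and Zscan4a, described with their families below, were also among the 10 largest. Igkv4-63, an immunoglobulin kappa variable segment, had 86.7 and 86.7 TPM in GcKO and was listed at 0 in both Gctrl libraries (limma adjusted p = 4.32e-05). Reads assigned to a segment of such a multigene family are uncertain, and the blood markers Ptprc and C1qa were listed at 0 in all 4 libraries. Stra8, Zfp119b, Bex2, Cyba, Igkv4-63, Rhox2d, Usp17lb and Zscan4a were under TPM 1 in both Gctrl libraries. The filter therefore required higher GcKO values of these genes.

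Mir3473a, a microRNA gene on the X chromosome, was the remaining one of the 10. It had 132 and 374 TPM in GcKO, against 0 and 1.72 TPM in Gctrl (log2 difference 7.08, SE 0.98, limma adjusted p = 0.000503), and the 2 GcKO values themselves differed by more than 2-fold. The reads lie over the hairpin gene and do not measure the mature microRNA, for which this library kit is not made. The mature sequence (RefSeq, GRCm38.p6) is shown because a microRNA is defined by its seed, bases 2 to 8, in capitals.
mmu-miR-3473a (chrX:162874920-162874937, minus strand): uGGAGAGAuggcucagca

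**Figure D2:**
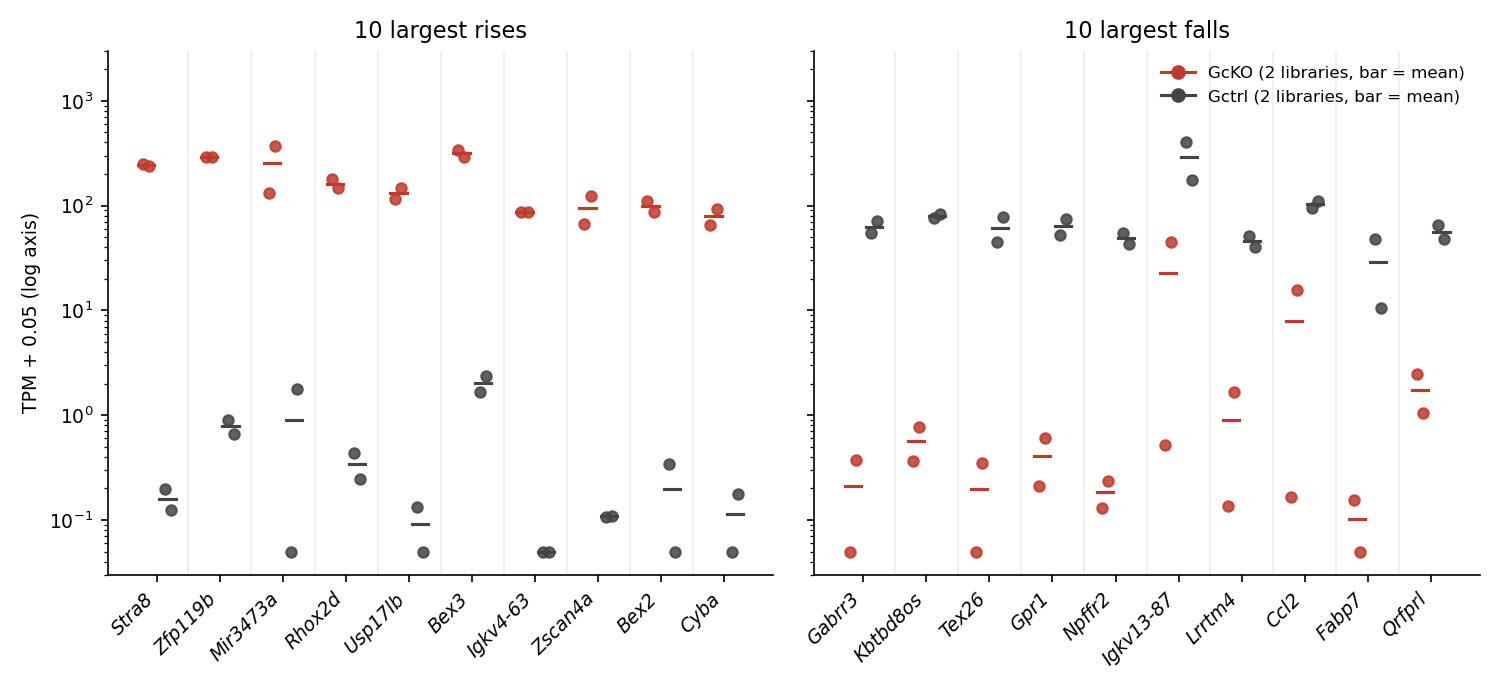
TPM in each library, on a log axis after adding 0.05, for the 10 named genes with the largest rise (left panel) and the 10 with the largest fall (right panel). Points are the 2 GcKO libraries (red) and the 2 Gctrl libraries (dark grey), and short bars are means. Genes with overlapping groups were left out of this choice, and the GcKO points of Igkv13-87, Ccl2 and Mir3473a lie apart from each other.

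Chosen in the same way, the largest falls included genes of receptors and secreted signals. Gabrr3, a subunit of an ionotropic GABA receptor, had 0 and 0.325 TPM in GcKO, against 54.3 and 70.8 TPM in Gctrl (log2 difference -5.77, SE 0.37, limma adjusted p = 3.51e-06). Gpr1, a receptor for chemerin, had 0.160 and 0.556 TPM in GcKO, against 52.4 and 75.2 TPM in Gctrl (log2 difference -5.57, SE 0.36, limma adjusted p = 3.51e-06). Npffr2, a receptor for neuropeptide FF, had 0.0811 and 0.188 TPM in GcKO, against 54.9 and 42.6 TPM in Gctrl (log2 difference -5.44, SE 0.61, limma adjusted p = 0.000111). Each of these 3 was near 0 in GcKO and well expressed in both Gctrl libraries. The filter required lower GcKO values of them, as they were under TPM 1 in both GcKO libraries. The same held for Tex26, Fabp7 and Kbtbd8os, described below. Lrrtm4, a synaptic adhesion protein, had 0.0867 and 1.63 TPM in GcKO, against 51.3 and 40.02 TPM in Gctrl (log2 difference -4.78, SE 0.63, limma adjusted p = 0.000366). Fabp7, a fatty acid carrier, had 0.107 and 0 TPM in GcKO, against 47.8 and 10.4 TPM in Gctrl (log2 difference -4.49, SE 0.84, limma adjusted p = 0.0038). Ccl2, a chemokine, had 0.117 and 15.7 TPM in GcKO, against 95.3 and 109 TPM in Gctrl (log2 difference -4.58, SE 1.01, limma adjusted p = 0.00951), with the libraries of GcKO far apart. Tex26 and Qrfprl completed this set with log2 differences of -5.71 and -4.45 (limma adjusted p = 3.85e-05 and 0.00331). Kbtbd8os, a transcript antisense to Kbtbd8, had 0.312 and 0.722 TPM in GcKO, against 76.1 and 82.2 TPM in Gctrl (log2 difference -5.74, SE 1.14, limma adjusted p = 0.00524). Kbtbd8 itself had 111 and 105 TPM in GcKO, against 207 and 138 TPM in Gctrl and did not pass (adjusted p = 0.606), and without stated strandedness reads of the 2 cannot be told apart. Igkv13-87 had 0.466 and 44.7 TPM in GcKO, against 402 and 177 TPM in Gctrl (log2 difference -5.03, SE 1.17, limma adjusted p = 0.0127), with the same uncertainty as other immunoglobulin segments. Leaving out 1 library ended the calls for Ccl2 without GcKO replicate 1, Gctrl replicate 1 or Gctrl replicate 2 (adjusted p = 0.0517 to 0.0608) and Igkv13-87 without Gctrl replicate 1 (adjusted p = 0.1).

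In TPM, abundant maternal transcripts carried the largest shifts. Dppa3 (Stella), the maternal protein that shields DNA methylation in the zygote, had 94336 and 105480.0 TPM in GcKO, against 45242 and 46799 TPM in Gctrl (log2 difference 1.12, SE 0.08, limma adjusted p = 4.43e-06), a gain of 53887 TPM between means. H3f3b, a gene of histone variant H3.3, had 7078 and 7722 TPM in GcKO, against 3535 and 3683 TPM in Gctrl (log2 difference 1.03, SE 0.18, limma adjusted p = 0.00207). Hsp90ab1, the constitutive HSP90 chaperone, had 5576 and 5185 TPM in GcKO, against 1578 and 2092 TPM in Gctrl (log2 difference 1.56, SE 0.25, limma adjusted p = 0.00142). Sub1, a transcriptional coactivator, had 6769 and 6242 TPM in GcKO, against 3783 and 3789 TPM in Gctrl (log2 difference 0.78, SE 0.06, limma adjusted p = 8.11e-06). In each of these, both knockout libraries exceeded both controls, as the choice required groups that do not overlap. The ubiquitin pseudogene Ubb-ps had 3652 and 3564 TPM in GcKO, against 1227 and 1889 TPM in Gctrl, where reads of Ubb may be assigned to it. Hsp90aa1, the inducible HSP90 gene, moved the other way, with 15026 and 14532 TPM in GcKO, against 31858 and 23910.0 TPM in Gctrl (log2 difference -0.90, SE 0.20, limma adjusted p = 0.00946). Ftdc1, which encodes a ferritin domain, had 489 and 985 TPM in GcKO, against 8778 and 10219 TPM in Gctrl (log2 difference -3.77, SE 0.68, limma adjusted p = 0.00296). Paip1, a partner of poly(A)-binding protein, had 1398 and 1484 TPM in GcKO, against 8098 and 6941 TPM in Gctrl (log2 difference -2.38, SE 0.20, limma adjusted p = 1.31e-05). Dppa5a, an RNA-binding KH-domain protein of germ cells, had 20410.0 and 27429 TPM in GcKO, against 33061 and 31673 TPM in Gctrl (log2 difference -0.45, SE 0.11, limma adjusted p = 0.0182). Fbxw15, an F-box gene from a family expressed in oocytes, had 3567 and 4528 TPM in GcKO, against 9189 and 8985 TPM in Gctrl (log2 difference -1.18, SE 0.29, limma adjusted p = 0.0169). These 5 genes fell, with all GcKO values below the Gctrl values, again a condition of the choice. The call did not hold for Hsp90aa1 without GcKO replicate 2 or Gctrl replicate 1 (adjusted p = 0.0565 to 0.106), Dppa5a without GcKO replicate 1, Gctrl replicate 1 or Gctrl replicate 2 (adjusted p = 0.0711 to 0.13), Fbxw15 without GcKO replicate 1, Gctrl replicate 1 or Gctrl replicate 2 (adjusted p = 0.0815 to 0.111) and Ubb-ps without any 1 of the 4 libraries (adjusted p = 0.067 to 0.299). In voom on recovered reads the calls of H3f3b, Hsp90ab1, Sub1 and Paip1 were lost as well (adjusted p = 0.206, 0.495, 0.0552 and 0.959). Quantile normalization gives the top-ranked gene of each library the same value, and Dppa3 then showed no difference. Nor did Dppa5a, and Hsp90aa1 and Fbxw15 no longer passed there (limma adjusted p = 0.148 and 0.172). The genes called higher took 30.7% and 31.5% of all TPM in GcKO, against 12.7% and 13.6% in Gctrl, and those called lower took 11.8% and 12.6% in GcKO, against 29.5% and 27.8% in Gctrl. These shares follow from how the genes were chosen.

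Among transcription factors of the oocyte, those that fell belonged to 1 family. Of 19 listed factors, 16 were among the genes described, 4 rose and 3 fell, beside 14.3% higher and 7.37% lower over all genes described. Sohlh1, the basic helix-loop-helix factor of early oocytes, had 22.5 and 45.2 TPM in GcKO, against 1.12 and 0.935 TPM in Gctrl (log2 difference 4.02, SE 0.29, limma adjusted p = 4.43e-06). Figla, which turns on the zona pellucida genes, had 965 and 753 TPM in GcKO, against 316 and 468 TPM in Gctrl (log2 difference 1.15, SE 0.22, limma adjusted p = 0.00441). Nobox, a homeobox factor of early folliculogenesis, had 137 and 145 TPM in GcKO, against 72.03 and 71.03 TPM in Gctrl (log2 difference 0.97, SE 0.23, limma adjusted p = 0.0155). Tbpl2, the oocyte form of TATA-binding protein, had 1292 and 1263 TPM in GcKO, against 394 and 590.0 TPM in Gctrl (log2 difference 1.40, SE 0.33, limma adjusted p = 0.0127). All 4 were higher in both GcKO libraries, and Sohlh1 was the only one below TPM 2 in controls. The 3 that fell were all Obox genes, an oocyte homeobox family. Obox2 had 68.1 and 203 TPM in GcKO, against 2086 and 1923 TPM in Gctrl (log2 difference -4.08, SE 0.66, limma adjusted p = 0.00142). Obox1 had 52.8 and 163 TPM in GcKO, against 869 and 875 TPM in Gctrl (log2 difference -3.22, SE 0.53, limma adjusted p = 0.00167), and Obox5 had 103 and 138 TPM in GcKO, against 841 and 852 TPM in Gctrl (log2 difference -2.82, adjusted p = 0.00937). Obox copies are close in sequence, so reads may be split among them. Lhx8, a LIM homeobox factor of the reserve, had 52.5 and 117 TPM in GcKO, against 64.5 and 113 TPM in Gctrl and the groups overlapped. With median-of-ratios scaling Tbpl2 and Nobox no longer passed (adjusted p = 0.0725 and 0.133), and Figla did not pass in voom on recovered reads (adjusted p = 0.266). Leaving out 1 library ended calls for Figla without Gctrl replicate 1 (adjusted p = 0.0547), Tbpl2 without GcKO replicate 1, GcKO replicate 2 or Gctrl replicate 1 (adjusted p = 0.0543 to 0.118), Nobox without GcKO replicate 2, Gctrl replicate 1 or Gctrl replicate 2 (adjusted p = 0.0617 to 0.0706) and Obox5 without GcKO replicate 1, Gctrl replicate 1 or Gctrl replicate 2 (adjusted p = 0.0558 to 0.057).

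Products of the growing oocyte gave a few calls in either direction, where 14.3% of all genes described were higher and 7.37% lower. No zona pellucida gene passed in the 16-library fit. Zp1 had 154 and 163 TPM in GcKO, against 105 and 91.6 TPM in Gctrl (log2 difference 0.69, SE 0.29, limma adjusted p = 0.16). Zp2 had 4527 and 3928 TPM in GcKO, against 2479 and 2233 TPM in Gctrl (log2 difference 0.84, SE 0.28, limma adjusted p = 0.0656), and Zp3, given above, had a log2 difference of 0.65 (limma adjusted p = 0.247). Both GcKO libraries were above both Gctrl libraries for these 3 genes. The negative result depended on the fit: Zp2 passed with only the 4 GO libraries, quantile normalization, the replicate block and voom on recovered reads (adjusted p = 0.0252, 0.0341, 0.0430 and 4.43e-05), and Zp3 passed with the first and last of these (adjusted p = 0.0307 and 0.00233). Of 10 listed secreted factors, 8 were described. Bmp15, Oosp1 and Oosp3 fell and none rose. Bmp15, the partner of GDF9, had 132 and 98.2 TPM in GcKO, against 599 and 391 TPM in Gctrl (log2 difference -2.08, SE 0.59, limma adjusted p = 0.0347), while Gdf9 had a log2 difference of 0.11 (adjusted p = 1.0), of the opposite sign (-0.19) with median-of-ratios scaling. Oosp3, an oocyte-secreted protein gene, had 32.7 and 123 TPM in GcKO, against 677 and 799.8 TPM in Gctrl (log2 difference -3.51, SE 0.65, limma adjusted p = 0.00326). Oosp1 had 207 and 231 TPM in GcKO, against 568 and 726 TPM in Gctrl (log2 difference -1.55, SE 0.38, limma adjusted p = 0.018), and its neighbour in the family, Oosp2, had 889 and 1178 TPM in GcKO, against 3954 and 4270.1 TPM in Gctrl and did not pass (adjusted p = 0.139). Both knockout libraries were below both controls for Bmp15 and the 3 Oosp genes. Of 8 genes of the subcortical maternal complex, a protein lattice under the egg membrane, Padi6 and Nlrp5 rose and none fell. Padi6 had 1590.3 and 1497 TPM in GcKO, against 513 and 585 TPM in Gctrl (log2 difference 1.49, SE 0.32, limma adjusted p = 0.00772). Nlrp5, also called Mater, had 1549.6 and 1071 TPM in GcKO, against 663 and 419 TPM in Gctrl (log2 difference 1.29, SE 0.35, limma adjusted p = 0.0273), whereas Ooep had 1767 and 1689.7 TPM in GcKO, against 1729 and 1588 TPM in Gctrl (adjusted p = 0.957). Nlrp9c, another oocyte NLRP gene, fell, with 91.6 and 93.8 TPM in GcKO, against 661 and 691 TPM in Gctrl (log2 difference -2.85, SE 0.50, limma adjusted p = 0.00237). Of the 6 Oogenesin and Omt2 genes, Omt2a, Omt2b and Oog4 fell. Omt2a, an oocyte maturation gene, had 1288 and 1557 TPM in GcKO, against 6172 and 5144 TPM in Gctrl (log2 difference -1.99, SE 0.36, limma adjusted p = 0.00269). Not all of these calls held: they were lost for Bmp15 without any 1 of the 4 libraries (adjusted p = 0.0753 to 0.202), Oosp1 without GcKO replicate 1, Gctrl replicate 1 or Gctrl replicate 2 (adjusted p = 0.0507 to 0.117), Padi6 without Gctrl replicate 1 (adjusted p = 0.0623), Nlrp5 without GcKO replicate 1 or Gctrl replicate 2 (adjusted p = 0.177 to 0.223) and Omt2b without GcKO replicate 1, Gctrl replicate 1 or Gctrl replicate 2 (adjusted p = 0.0629 to 0.089).

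Some genes of stored mRNA and arrest were called. Of 20 genes of maternal mRNA storage and decay, 19 were described; Ddx6 rose, and Cnot6l and Pabpc1l fell, beside 14.3% higher and 7.37% lower over all genes described. With median-of-ratios scaling 5 fell, and the list's median log2 difference of -0.68 became -0.96. Ddx6, a helicase of storage granules, had 28.5 and 39.4 TPM in GcKO, against 13.8 and 15.7 TPM in Gctrl (log2 difference 1.14, SE 0.24, limma adjusted p = 0.00805). Cnot6l, a deadenylase of maternal mRNA clearance, had 40.7 and 15.8 TPM in GcKO, against 83.4 and 89.4 TPM in Gctrl (log2 difference -1.72, SE 0.41, limma adjusted p = 0.0147). Of 20 genes of meiotic arrest and maturation, 16 were described and Pde3a alone was called. This phosphodiesterase, which breaks down the cAMP that holds the arrest, had 4.25 and 2.40 TPM in GcKO, against 34.3 and 17.6 TPM in Gctrl (log2 difference -2.60, SE 0.47, limma adjusted p = 0.00296). GcKO stood below Gctrl in both libraries. With 1 library left out, calls were lost for Cnot6l without GcKO replicate 2, Gctrl replicate 1 or Gctrl replicate 2 (adjusted p = 0.0623 to 0.0825) and Pabpc1l without GcKO replicate 1, Gctrl replicate 1 or Gctrl replicate 2 (adjusted p = 0.094 to 0.17). Ddx6 did not pass with only the 4 GO libraries or the 8 P10 libraries (adjusted p = 0.111 and 0.105).

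Meiotic prophase genes were among those that rose. Of 36 listed genes, 27 were described, 4 of them only through GcKO and 1 only through Gctrl. Of the 27, 14 rose and 4 fell, under either scaling, beside 14.3% higher and 7.37% lower over all genes described. Sycp3, a lateral element protein of the synaptonemal complex, had 1921 and 1762 TPM in GcKO, against 229 and 154 TPM in Gctrl (log2 difference 3.29, SE 0.13, limma adjusted p = 3.54e-07). Syce1, of its central element, had 349 and 225 TPM in GcKO, against 15.96 and 19.2 TPM in Gctrl (log2 difference 3.93, SE 0.19, limma adjusted p = 6.54e-07). Tex15, a germ cell protein needed for meiotic recombination, had 196 and 152 TPM in GcKO, against 24.2 and 26.6 TPM in Gctrl (log2 difference 2.72, SE 0.21, limma adjusted p = 7.61e-06). Smc1b, the meiotic cohesin subunit, had 881 and 491 TPM in GcKO, against 198 and 198 TPM in Gctrl (log2 difference 1.73, SE 0.21, limma adjusted p = 0.000198). For these 4, each GcKO library was well above each Gctrl library. Hormad1, an axis protein named here after its values were seen, had 65.9 and 41.7 TPM in GcKO, against 9.82 and 15.9 TPM in Gctrl (log2 difference 1.98, SE 0.33, limma adjusted p = 0.00179); its call was lost in voom on recovered reads (adjusted p = 0.128). The members did not move as 1 block. Sycp2, the partner of SYCP3 on the lateral element, fell, with 10.6 and 11.3 TPM in GcKO, against 77.6 and 88.5 TPM in Gctrl (log2 difference -2.81, SE 0.34, limma adjusted p = 0.000196). Mei4, needed for meiotic DNA breaks, fell, with 3.85 and 0.524 TPM in GcKO, against 54.3 and 52.5 TPM in Gctrl (log2 difference -4.32, SE 0.75, limma adjusted p = 0.0022). Syce3 and Tex12, also of the central element, fell by 2.40 and 1.24 on the log2 scale (limma adjusted p = 0.0203 and 0.0242). Without GcKO replicate 1 the number of listed genes that rose was 9, and it was 10 or 11 without another library. Non-growing oocytes of the same age, where the sequenced controls had Sycp3 at 2417 and 2423 TPM and Syce1 at 708 and 660 TPM, held these transcripts at levels above those of GcKO growing oocytes.

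Promoters of Sycp3 and Hormad1 are shown because both carry CACGTG, the E-box that MAX-type factors are known to bind in germline gene promoters, and TCCCGC, the core letters of the E2F6 motif. The 250 bases before the start site (RefSeq, GRCm38.p6) run 5′ to 3′ along the gene, with CACGTG and TCCCGC, or its complement GCGGGA, in capitals.
Sycp3 (chr10:88459337-88459586, plus strand): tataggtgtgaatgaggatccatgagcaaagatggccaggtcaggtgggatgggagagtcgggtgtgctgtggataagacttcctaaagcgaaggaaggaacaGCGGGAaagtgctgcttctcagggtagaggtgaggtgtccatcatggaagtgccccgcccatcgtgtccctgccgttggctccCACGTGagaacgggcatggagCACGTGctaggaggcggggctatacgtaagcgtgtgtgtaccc
Hormad1 (chr3:95559427-95559676, plus strand): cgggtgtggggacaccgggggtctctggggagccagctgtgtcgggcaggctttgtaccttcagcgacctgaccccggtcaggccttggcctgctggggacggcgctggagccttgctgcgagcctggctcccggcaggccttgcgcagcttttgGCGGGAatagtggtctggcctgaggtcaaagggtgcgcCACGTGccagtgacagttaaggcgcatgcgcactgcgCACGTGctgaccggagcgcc
Both strands were searched; CACGTG reads the same on both, and the 2 motifs share no position here. CACGTG occurred in 6.05% and TCCCGC in 16.9% of 27025 RefSeq promoter windows of this length, and in 8.60% and 29.9% of the 7733 windows found for protein-coding genes described here. Both promoters were chosen for carrying the motifs. The promoter table held 10 of the 14 meiotic genes that rose, fewer than 80%, so a share over that group is void; 4 of those 10 held CACGTG and 6 did not. Windows were found for 1048 of the 1343 protein-coding genes called higher, also fewer than 80%. Of these 1048, 94 held CACGTG and 247 TCCCGC, beside 543 and 1941 of 6187 for genes not called. A match describes letters in a window and not a bound site.

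Genes of the 2-cell embryo rose in GcKO growing oocytes. These genes are normally switched on when the embryonic genome is first read. Of 27 listed genes, 17 were described, 11 of them only through GcKO, so those 11 could not be lower. Of the 17, 13 rose and none fell, beside 14.3% higher and 7.37% lower over all genes described. Usp17lb, a ubiquitin peptidase gene, had 115 and 147 TPM in GcKO, against 0.0843 and 0 TPM in Gctrl (log2 difference 6.97, SE 0.35, limma adjusted p = 9.02e-07). Usp17la had 21.8 and 28.2 TPM in GcKO and was listed at 0 in both Gctrl libraries (limma adjusted p = 1.97e-06). Pramef25, of the PRAME family, had 17.8 and 20.97 TPM in GcKO and was also listed at 0 in both Gctrl libraries (adjusted p = 3.76e-06). All GcKO values lay above the controls. The filter required this of these genes, which were under TPM 1 in both Gctrl libraries. Gm5662, a predicted gene of the list, had 189 and 277 TPM in GcKO, against 0.215 and 0 TPM in Gctrl (log2 difference 7.71, SE 0.52, limma adjusted p = 3.76e-06). Zscan4a, a zinc finger gene that marks the 2-cell stage and telomere lengthening in mouse embryonic stem cells, had 66.6 and 124 TPM in GcKO, against 0.0578 and 0.0588 TPM in Gctrl (log2 difference 6.44, SE 0.60, limma adjusted p = 2.91e-05). Zscan4c had 156 and 239.6 TPM in GcKO, against 0.231 and 5.59 TPM in Gctrl (log2 difference 6.09, SE 0.85, limma adjusted p = 0.00054), and Zscan4d and Zscan4f rose as well. Gctrl replicate 2 held 5.59 TPM of Zscan4c, well under either knockout value. The Zscan4 and Usp17l copies are nearly identical, so the split among copies is uncertain. Leaving out any 1 of the 4 libraries also gave 13 higher. Median-of-ratios scaling gave 13 higher and 1 lower. The promoter of Zscan4c, chosen after its values were seen, is shown for its TATAAA box, in capitals, shortly before the start site.
Zscan4c (chr7:11005495-11005744, plus strand): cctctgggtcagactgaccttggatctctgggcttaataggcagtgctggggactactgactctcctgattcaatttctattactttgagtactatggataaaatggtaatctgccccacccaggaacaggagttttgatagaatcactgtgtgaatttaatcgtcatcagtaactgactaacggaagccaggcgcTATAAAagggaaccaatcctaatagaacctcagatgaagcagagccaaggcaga
TATAAA occurred in 12.97% of the 27025 promoter windows and in 6.83% of those of protein-coding genes described here, searched on both strands.

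Reproductive homeobox genes on the X chromosome rose. Of 32 genes of the Rhox cluster, 18 were described. Of these, 12 rose and none fell, beside 14.3% higher and 7.37% lower over all genes described. Among the 18, 13 had passed only through GcKO, Rhox2d, Rhox2g and Rhox2h included. The filter required higher GcKO values of those 13. Rhox2d (chrX:37493428-37497623) had 178 and 147 TPM in GcKO, against 0.384 and 0.196 TPM in Gctrl (log2 difference 6.98, SE 0.73, limma adjusted p = 6.68e-05). Rhox2g had 77.4 and 68.5 TPM in GcKO, against 0 and 0.336 TPM in Gctrl (log2 difference 6.00, SE 0.51, limma adjusted p = 1.61e-05). Rhox2h had 69.6 and 68.6 TPM in GcKO, against 0.167 and 0 TPM in Gctrl (log2 difference 6.02, SE 0.79, limma adjusted p = 0.000359). The Rhox2 copies are near-identical and their reads may be split. Rhox1, a single-copy member, had 53.7 and 63.04 TPM in GcKO, against 4.02 and 6.07 TPM in Gctrl (log2 difference 3.31, SE 0.29, limma adjusted p = 1.96e-05). Summed over the cluster, the level was 1084 and 684 TPM in GcKO, against 118 and 161 TPM in Gctrl. With median-of-ratios scaling 15 rose and 1 fell. The Rhox2d promoter is shown with TAATTG, a letter pattern typical of homeodomain sites, in capitals.
Rhox2d (chrX:37493160-37493409, plus strand): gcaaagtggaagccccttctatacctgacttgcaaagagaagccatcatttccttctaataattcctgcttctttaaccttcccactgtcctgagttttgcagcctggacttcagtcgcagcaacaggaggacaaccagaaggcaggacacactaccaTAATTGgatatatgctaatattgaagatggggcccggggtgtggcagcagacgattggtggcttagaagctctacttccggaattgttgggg
TAATTG was present in 8 of the 10 promoters found for the 12 Rhox genes that rose, against 7.34% of all 27025 windows and 4.69% of those of protein-coding genes described here; these promoters derive from copied genes and are not independent.

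Other X-linked germ cell families followed. Of 31 MAGE and Xlr genes, 15 were described, and 1 had passed only through GcKO. Of the 15, 10 rose and none fell, beside 14.3% higher and 7.37% lower over all genes described. Xlr3b, imprinted in mouse brain, had 208 and 192 TPM in GcKO, against 20.2 and 21.1 TPM in Gctrl (log2 difference 3.21, SE 0.25, limma adjusted p = 7.71e-06). Xlr5a had 171 and 132 TPM in GcKO, against 11.6 and 7.78 TPM in Gctrl (log2 difference 3.84, SE 0.35, limma adjusted p = 2.70e-05). Xlr4a had 1198 and 1298 TPM in GcKO, against 376 and 450.4 TPM in Gctrl (log2 difference 1.60, SE 0.18, limma adjusted p = 0.000111). Maged1, a MAGE adaptor of cell death and differentiation, had 67.4 and 42.5 TPM in GcKO, against 7.84 and 4.31 TPM in Gctrl (log2 difference 2.99, SE 0.32, limma adjusted p = 8.06e-05). Every GcKO library exceeded every Gctrl library in these 4, and Xlr copies may share reads. On the X chromosome as a whole, 121 of 531 genes were higher (22.8%) and 39 lower. Without the Rhox, MAGE and Xlr lists, 99 of 498 were higher (19.9%), while the 19 autosomes ranged between 12.2% and 16.9%.

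Chromatin and methylation genes gave few calls, in either direction. The shares called among all genes described were 14.3% higher and 7.37% lower. Dnmt3l, the cofactor of methylation in growing oocytes, had 0.134 and 0 TPM in GcKO, against 3.96 and 11.9 TPM in Gctrl (log2 difference -2.91, SE 0.38, limma adjusted p = 0.00032). Ezh2, the Polycomb methyltransferase of H3K27, had 172 and 93.5 TPM in GcKO, against 519.9 and 528 TPM in Gctrl (log2 difference -2.04, SE 0.34, limma adjusted p = 0.00183). Both fell to well under the controls in each library. The filter required lower GcKO values of Dnmt3l, which was under TPM 1 in both GcKO libraries. Of 16 Polycomb genes, 14 were described. Pcgf6 also fell and Pcgf2 rose, with log2 differences of -1.02 and 1.59 (limma adjusted p = 0.0408 and 0.0372). With median-of-ratios scaling 4 Polycomb genes and 3 of 15 genes of DNA methylation and imprint protection fell, against 2 and 1 as deposited. Of 40 imprinted genes, 16 were described, 3 rose and 2 fell. Plagl1, an imprinted zinc finger gene, had 0.102 and 0.572 TPM in GcKO, against 14.1 and 16.6 TPM in Gctrl (log2 difference -3.63, SE 0.38, limma adjusted p = 6.41e-05). Snrpn, a splicing protein gene, had 137 and 87.7 TPM in GcKO, against 10.00 and 22.9 TPM in Gctrl (log2 difference 2.77, SE 0.49, limma adjusted p = 0.00246). Among developmental transcription factors, Isl1, a LIM homeobox gene, had 7.64 and 5.18 TPM in GcKO, against 85.4 and 89.6 TPM in Gctrl (log2 difference -3.60, SE 0.53, limma adjusted p = 0.000757), and Foxc1, a forkhead gene, had 0 and 0.0264 TPM in GcKO, against 6.06 and 3.16 TPM in Gctrl (log2 difference -2.42, SE 0.34, limma adjusted p = 0.000501). Both fell, and no library of GcKO reached the level of a control. The filter required this of Foxc1, under TPM 1 in both GcKO libraries. Of 66 listed factors of this kind, 9 were described, 2 rose and 2 fell. Leave-out fits ended the call for Pcgf6 without GcKO replicate 2, Gctrl replicate 1 or Gctrl replicate 2 (adjusted p = 0.132 to 0.208) and Pcgf2 without GcKO replicate 1, Gctrl replicate 1 or Gctrl replicate 2 (adjusted p = 0.121 to 0.14).

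Many genes of oxidative phosphorylation and of the ribosome rose. Of 82 nuclear genes of oxidative phosphorylation, 43 rose and none fell, with a median log2 difference of 0.70 beside 0.20 over all genes described. Cox6c, of cytochrome oxidase, had 1041 and 1026 TPM in GcKO, against 285 and 349.8 TPM in Gctrl (log2 difference 1.71, SE 0.15, limma adjusted p = 2.02e-05). Ndufa12, of complex I, had 1179.5 and 1043 TPM in GcKO, against 355 and 409 TPM in Gctrl (log2 difference 1.54, SE 0.14, limma adjusted p = 2.19e-05). Cox7a1, the muscle and heart isoform of another oxidase subunit, had 194 and 247 TPM in GcKO, against 10.3 and 15.3 TPM in Gctrl (log2 difference 4.02, SE 0.39, limma adjusted p = 3.77e-05). GcKO was above Gctrl in each library for all 3. With median-of-ratios scaling 19 rose and none fell, at a median of 0.41, and without Gctrl replicate 1 the count was 26. Of 90 ribosomal protein genes, 86 were described, 36 rose and 3 fell. Rpsa, of the small subunit, had 47.1 and 40.7 TPM in GcKO, against 13.99 and 10.6 TPM in Gctrl (log2 difference 1.76, SE 0.22, limma adjusted p = 0.000245). This group depended on scaling: 8 rose and 5 fell with median of ratios, and 17 or 20 rose without Gctrl replicate 1 or GcKO replicate 1. Many ribosomal genes have processed pseudogenes that can take up their reads. Of 39 proteasome genes, 35 were described, 7 rose and 1 fell, beside 14.3% higher over all genes described, and 4 rose with median-of-ratios scaling. Psmb4, of the core particle, had 244 and 317 TPM in GcKO, against 83.9 and 54.9 TPM in Gctrl (log2 difference 2.02, SE 0.28, limma adjusted p = 0.000543).

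Some redox genes rose. Of 29 glutathione and redox genes, 25 were described, 8 rose and none fell. Prdx1, a peroxide scavenger, had 2303 and 2664 TPM in GcKO, against 1118 and 1323 TPM in Gctrl (log2 difference 1.03, SE 0.12, limma adjusted p = 0.000181). Cat, catalase, had 36.1 and 15.8 TPM in GcKO, against 0.252 and 0.154 TPM in Gctrl (log2 difference 4.37, SE 0.65, limma adjusted p = 0.000817). Ftl1, ferritin light chain, had 95.3 and 82.8 TPM in GcKO, against 3.05 and 13.9 TPM in Gctrl (log2 difference 3.53, SE 0.43, limma adjusted p = 0.000211). All GcKO values exceeded the Gctrl values, which the filter required for Cat, under TPM 1 in both Gctrl libraries. Of 33 genes of the p53 pathway and apoptosis, 18 were described, 5 of them only through GcKO; Pmaip1, Gadd45b, Bax and Cdkn1a rose and none fell. Pmaip1, the BH3-only protein NOXA, had 89.5 and 95.7 TPM in GcKO, against 0.482 and 0.784 TPM in Gctrl (log2 difference 5.85, SE 0.45, limma adjusted p = 7.65e-06). Bax, a pore former of mitochondrial apoptosis, had 15.2 and 14.4 TPM in GcKO, against 3.09 and 0.170 TPM in Gctrl (log2 difference 2.85, SE 0.52, limma adjusted p = 0.00303). Cdkn1a, the p21 inhibitor of the cell cycle, had 16.4 and 5.73 TPM in GcKO, against 0.185 and 0.302 TPM in Gctrl (log2 difference 3.12, SE 0.61, limma adjusted p = 0.00462). Gadd45b, a stress sensor, had 18.2 and 17.8 TPM in GcKO, against 0.911 and 0.253 TPM in Gctrl (log2 difference 3.62, SE 0.47, limma adjusted p = 0.000318). All 4 had GcKO libraries above both controls. For Pmaip1, Gadd45b and Cdkn1a, under TPM 1 in both controls, the filter required this. Over all genes described, 14.3% were higher. Bax did not pass with only the 4 GO libraries or the 8 P10 libraries (adjusted p = 0.0797 and 0.0537), nor Cdkn1a with the 8 P10 libraries or a pseudocount of 5 (adjusted p = 0.0562 and 0.0537). Of 33 mitotic and replication genes, 29 were described and none passed in either direction, although 2 were lower with median-of-ratios scaling. Of 28 interferon-induced genes, 10 were described. Mx1, Ifi27, Ifitm2 and Xaf1 rose and Stat2 fell. Mx1, an antiviral GTPase, had 23.5 and 11.4 TPM in GcKO, against 0.0348 and 0 TPM in Gctrl (log2 difference 4.10, SE 0.40, limma adjusted p = 3.96e-05). In fits with 1 library fewer, calls were lost for Ifitm2 without Gctrl replicate 2 (adjusted p = 0.0884) and Xaf1 without Gctrl replicate 1 or Gctrl replicate 2 (adjusted p = 0.0524 to 0.0529).

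**Figure D3:**
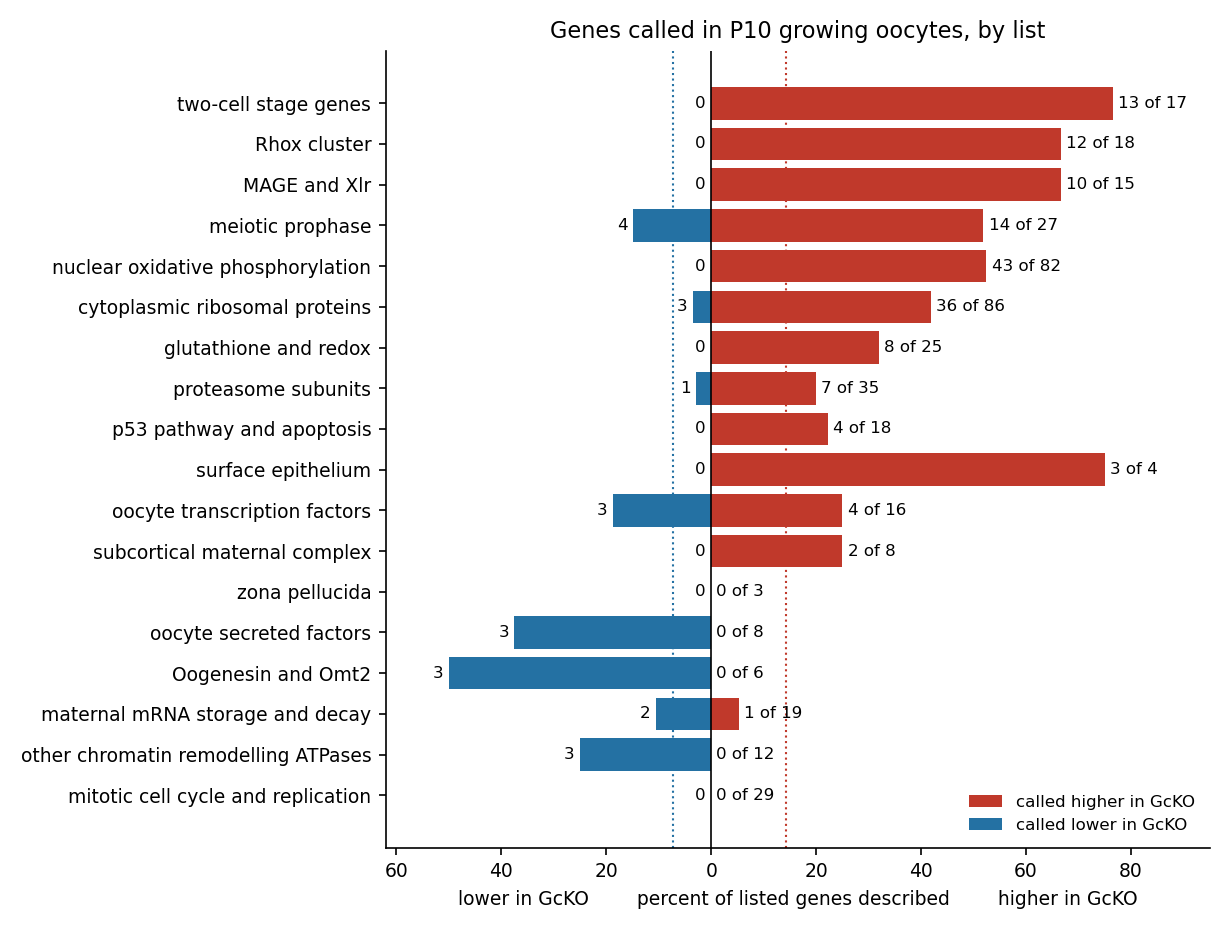
Percent of the listed genes among the 12937 described that were called higher (red, to the right) or lower (blue, to the left) in GcKO growing oocytes, for 18 lists, with counts beside the bars. Genes described only through GcKO, such as 11 of the 17 on the 2-cell list, had to differ. Dotted lines mark the shares called among all 12937 genes, 14.3% higher and 7.37% lower. The bar of oxidative phosphorylation reaches 43 of 82, and that of the zona pellucida genes is empty.

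A gene usually listed for ovarian surface epithelium, Epcam, rose steeply. Epcam, a cell adhesion protein, had 183 and 222 TPM in GcKO, against 2.16 and 10.8 TPM in Gctrl (log2 difference 5.05, SE 0.43, limma adjusted p = 1.65e-05). Krt8 and Krt19, simple epithelial keratins, rose too. Krt8 had 5.31 and 10.2 TPM in GcKO, against 0.202 and 0.137 TPM in Gctrl (log2 difference 2.84, SE 0.75, limma adjusted p = 0.0252). Krt19 had 3.38 and 2.74 TPM in GcKO and was listed at 0 in both Gctrl libraries (limma adjusted p = 0.0219). Of 12 listed genes, 4 were described. These 3 rose and none fell, beside 14.3% higher and 7.37% lower over all genes described. The filter required higher GcKO values of Krt8 and Krt19, under TPM 1 in both Gctrl libraries. Fewer of the listed genes rose when 1 library was left out. Upk3b, a defining marker of that epithelium, had 0.113 and 0.0437 TPM in GcKO, against 3.02 and 0.417 TPM in Gctrl. In non-growing oocytes, Epcam had 359.7 and 428 TPM in GcKO NGO, against 264 and 235 TPM in Gctrl NGO. All 4 of those libraries exceeded the growing control oocytes.

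Genes that rose and fell also differed in length, in type and in level in other oocytes. Exon length enters TPM and so is not independent of the comparison. The median union exon length was 2166.5 bases for genes called higher, 2860.5 for those called lower and 3528.5 for the rest, among genes matched to the GENCODE M21 annotation. Long intergenic RNAs made up 6.89% of genes called higher, 15.9% of those called lower and 4.61% of the rest. Counted by type, 125 of 733 such RNAs rose and 148 fell, against 1343 and 630 of 9669 protein-coding genes. Genes called higher had a median of 21.2 TPM in GcKO, against 1.09 TPM in Gctrl growing oocytes. In libraries outside the contrast, which entered the fit through the common variance, the same genes had medians of 8.71 TPM in P1 controls, 11.9 TPM in P5 controls and 5.56 TPM in P10 non-growing controls. Genes called lower had 2.71 TPM in GcKO, against 21.2 TPM in Gctrl growing oocytes, and 1.69, 3.15 and 2.75 TPM in the P1, P5 and P10 non-growing controls. Over all genes described, the medians in these controls were 9.03, 10.3 and 6.90 TPM. Genes called higher were thus near the level of all genes there, and genes called lower were below it. The P1 and P5 controls (Dctrl) carried 1 floxed and 1 wild-type Chd4 allele with Ddx4-Cre.

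**Figure D4:**
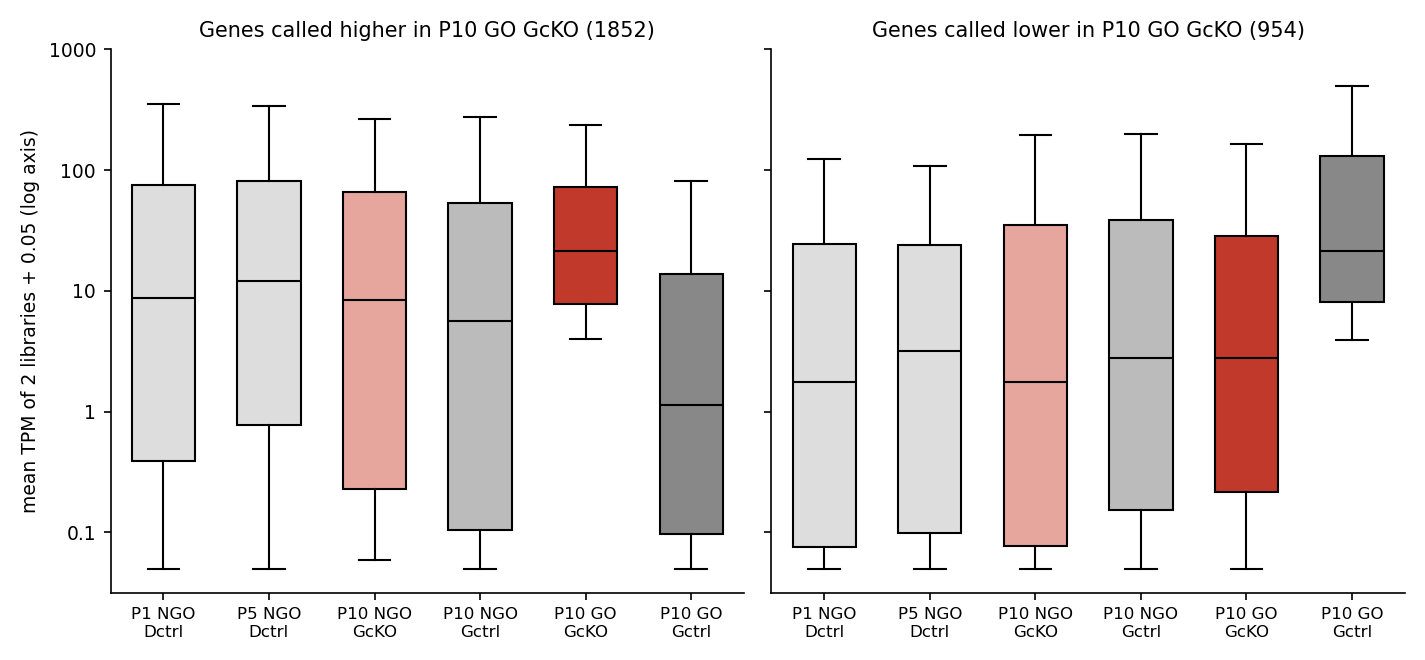
Mean TPM of 2 libraries plus 0.05, on a log axis, for the 1852 genes called higher (left panel) and the 954 called lower (right panel) in P10 GcKO growing oocytes, in 6 oocyte groups. Boxes span the quartiles, lines are medians and whiskers reach the 10th and 90th percentiles of genes. The growing-oocyte boxes differ because the genes were chosen from them, and the non-growing groups (NGO) show medians of 5.56 to 11.9 TPM in controls for the left panel and 1.69 to 3.15 TPM for the right. Over all 12937 genes, not drawn here, these control medians were 6.90 to 10.3 TPM.

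The knockout effect was set against that in non-growing oocytes (NGO) of the same genotypes and age, which share no library with the growing oocytes. The test of the difference between the 2 effects passed for 1449 of the 12937 genes (11.2%), 948 with the GO effect above the NGO effect (7.33%) and 501 with it below (3.87%). Of the 948, 804 were also called higher in GO, and of the 501, 389 were also called lower there. For 1611 of the 2806 genes called in GO, the difference between effects did not pass. Fitting the 8 P10 libraries alone gave 376. Of the 1449, 450 had a mean under TPM 1 in both NGO groups, so there was little transcript to compare.

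The genes named next have the largest difference of effects outside predicted gene models, a choice that favours opposite signs in GO and NGO. Of the 1449 genes, 30 were called in both, in opposite directions. Serpinb6c, a serine protease inhibitor gene, had 42.1 and 26.9 TPM in GcKO, against 0.189 and 0 TPM in Gctrl in growing oocytes, and 0 and 0 TPM in GcKO NGO, against 16.5 and 3.29 TPM in Gctrl NGO (difference of effects 8.11, SE 1.05, limma adjusted p = 0.000944). Meiob, a meiotic recombination factor, had 58.9 and 12.9 TPM in GcKO, against 0.146 and 0.223 TPM in Gctrl in growing oocytes, and 0.353 and 0.413 TPM in GcKO NGO, against 19.8 and 2.46 TPM in Gctrl NGO (difference of effects 7.23, SE 1.11, limma adjusted p = 0.00268). In both, the higher values were those of knockouts in GO and of controls in NGO, but the NGO difference alone did not pass (adjusted p = 0.0576 for Serpinb6c and 0.128 for Meiob). Spint4, a Kunitz-type inhibitor gene, had 77.3 and 60.8 TPM in GcKO, against 0 and 0.178 TPM in Gctrl in growing oocytes, and 60.01 and 7.26 TPM in GcKO NGO, against 49.7 and 39.8 TPM in Gctrl NGO (difference of effects 7.02, SE 1.00, limma adjusted p = 0.00164). In NGO alone Spint4 did not pass either (adjusted p = 0.581). Lrrc19 and Usp17lb had differences of effects of 7.22 and 6.65. At the other end, Cpeb4, a regulator of poly(A) tails, had 4.31 and 0.339 TPM in GcKO, against 12.2 and 17.8 TPM in Gctrl in growing oocytes, and 20.98 and 19.9 TPM in GcKO NGO, against 0.509 and 0.427 TPM in Gctrl NGO (difference of effects -6.44, SE 0.88, limma adjusted p = 0.00133). Tcf7l2, a mediator of Wnt signalling, had 11.6 and 4.77 TPM in GcKO, against 70.98 and 55.3 TPM in Gctrl in growing oocytes, and 9.49 and 25.7 TPM in GcKO NGO, against 0.772 and 0.450 TPM in Gctrl NGO (difference of effects -6.29, SE 0.81, limma adjusted p = 0.000882). Fam107b had 28.6 and 8.48 TPM in GcKO, against 128 and 129 TPM in Gctrl in growing oocytes, and 32.04 and 24.1 TPM in GcKO NGO, against 2.63 and 1.25 TPM in Gctrl NGO (difference of effects -6.28, SE 0.66, limma adjusted p = 0.000347). These 3 passed in both, lower in knockout GO and higher in knockout NGO (NGO adjusted p = 0.0107, 0.0136 and 0.00664). Sycp3 had an excess of 2.66 in GO (limma adjusted p = 6.76e-05), and Dppa3 one of 1.20 (adjusted p = 0.000196).

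**Figure D5:**
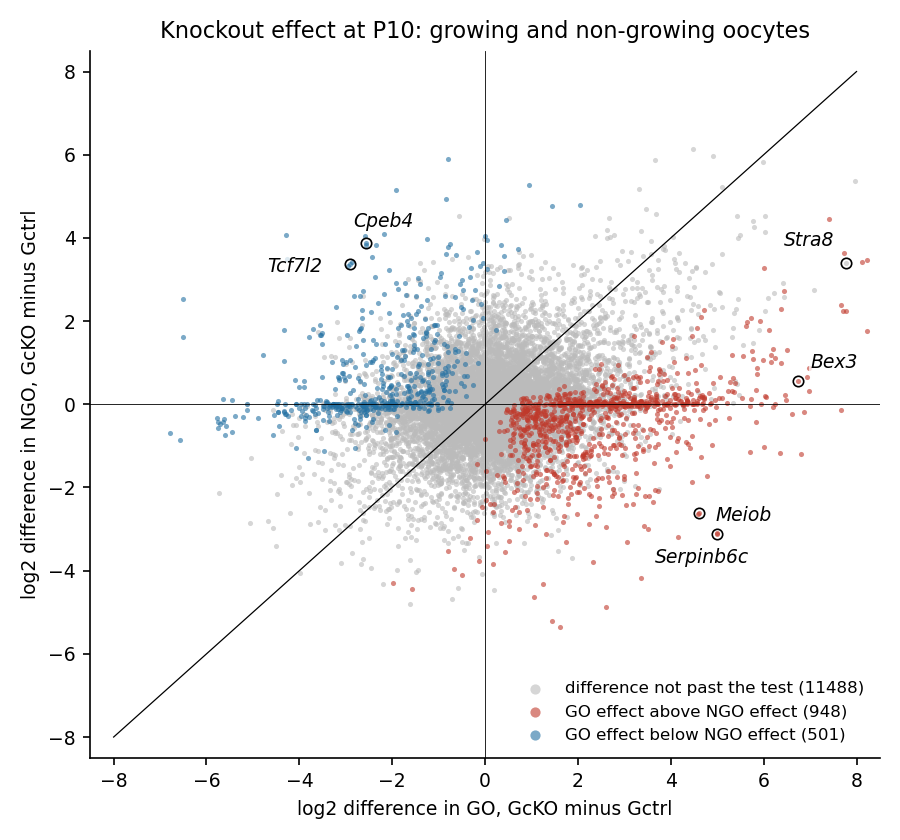
Log2 difference, GcKO minus Gctrl, in P10 non-growing oocytes (vertical) against that in P10 growing oocytes (horizontal) for 12937 genes. Red points are the 948 genes whose GO effect was above the NGO effect in limma and blue points the 501 with it below, and the diagonal marks equal effects. Many coloured points lie along the horizontal axis, where the NGO difference is near 0.

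Few genes were called in the same direction in other knockout oocytes, none of which share libraries with these. All these contrasts came from the same fit with a common variance per gene, so their calls are not independent. In GO, 14.3% of all genes described were called higher and 7.37% lower. The P1 and P5 knockouts (DcKO) were Chd4 f/- with Ddx4-Cre and were set against Dctrl. In P1 NGO, 63 of the 12937 genes were called higher (0.487%), and 41 of them were also higher in GO, which is 65.1% of the P1 list and 2.21% of the GO list. In P5 NGO, 65 were higher (0.502%) and 39 were shared, 60% of the P5 list and 2.11% of the GO list. In P10 NGO, 156 were higher (1.21%) and 65 were shared, 41.7% of the NGO list and 3.51% of the GO list. Genes called lower were also shared in part, 15 of 78 at P1, 8 of 33 at P5 and 23 of 135 in P10 NGO, out of 954 in GO. Other genes lower there were called higher in GO, 9 at P1, 8 at P5 and 20 in P10 NGO. Of the genes higher there, 3, 4 and 10 were called lower in GO. The 11 genes called higher in growing oocytes, at P1 and at P5 included Bex3, Sub1, Tceal9 and Zfp54. Zfp54, a zinc finger gene, had 325 and 370.4 TPM in GcKO, against 4.88 and 10.2 TPM in Gctrl in growing oocytes (log2 difference 5.42, SE 0.42, limma adjusted p = 7.61e-06). It had log2 differences of 1.93 at P1, 2.34 at P5 and 4.52 in P10 NGO, all past the test. Tceal9, an X-linked relative of the Bex genes, had 287 and 288 TPM in GcKO, against 44.04 and 69.1 TPM in Gctrl in growing oocytes (log2 difference 2.36, SE 0.27, limma adjusted p = 0.000148). Both genes were higher in each knockout library of the growing oocytes.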

How the data were processed

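The authors deposited TPM for 16 oocyte libraries in 8 groups, of which the 4 libraries of P10 growing oocytes are the subject here. The submitters' processing notes name Trimmomatic 0.39, STAR 2.5.4b, SAMtools 1.9, featureCounts 2.0.1 and GRCm38. The annotation, gene lengths, strandedness and formula of TPM are not given in the sources used here. Depth was recovered by multiplying TPM with GENCODE M21 union exon lengths (52017 symbols matched). At the scale chosen, 98.65% to 99.13% of the values below 20 reads were within 0.05 of an integer. The reads carry no molecular identifiers.

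The 20470 genes that reached TPM 1 in 2 or more of the 16 libraries were transformed to log2(TPM + 1). The model was fitted with limma 3.58.1 in R 4.3.3, with contrasts between group means and a mean-variance trend in eBayes. The p-values are two-sided and were adjusted by Benjamini-Hochberg over all 20470 genes. The 8 groups had a common variance per gene (residual df 8, prior df 3.84). Adding 1 to TPM shrinks the differences of weakly expressed genes. The fit was tested on simulated data. Python 3.11.15 with numpy 2.4.6, pandas 2.3.3 and matplotlib 3.10.9 made the tables and figures.

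The members and the 47 gene lists were chosen with earlier results of these data known, and the histone list was matched to newer symbols after the table was read. Named genes were Chd4, the 10 largest rises and 10 largest falls past the test (group mean of 5 TPM or more, no overlap, no predicted symbol), the 5 largest gains and losses in TPM, up to 4 members of each list by smallest p, and 5 genes each way for the difference of effects. Other genes were named after their values were seen. Replicate numbers did not pair the libraries (r = 0.028 between the replicate differences of GcKO and Gctrl). Alternatives changed the pseudocount, the filter, the libraries fitted, the scaling, the trend, the mitochondrial genes and the replicate block, or left out 1 library. Voom on recovered reads and leaving out each P10 NGO library were added after the data were seen. Spermatogonia libraries were not used here.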

Additional observations from a re-analysis of the deposited data

Results flagged for a closer look

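The knockout effect differed between growing and non-growing oocytes at P10 for 1449 genes, by the limma test of the difference of effects. Outside predicted gene models, the genes with the largest difference in favour of growing oocytes were Serpinb6c (8.11 on the log2 scale), Meiob (7.23), Lrrc19 (7.22), Spint4 (7.02) and Usp17lb (6.65). Lrrc19, a leucine-rich repeat protein, had 16.4 and 41.5 TPM in GcKO, against 0.0924 and 0.188 TPM in Gctrl in growing oocytes, and 0 and 0.130 TPM in GcKO NGO, against 16.2 and 1.56 TPM in Gctrl NGO (difference of effects 7.22, SE 1.12, limma adjusted p = 0.00276). The genes with the largest difference the other way were Cpeb4 (-6.44), Psg16 (-6.41), Tmem274 (-6.30), Tcf7l2 (-6.29) and Fam107b (-6.28). Psg16, of the pregnancy-specific glycoprotein family, had 0.0485 and 0.281 TPM in GcKO, against 6.26 and 5.56 TPM in Gctrl in growing oocytes, and 5.64 and 37.7 TPM in GcKO NGO, against 0.0944 and 0.156 TPM in Gctrl NGO (difference of effects -6.41, SE 0.89, limma adjusted p = 0.0015). Tmem274 was listed at 0 in both GcKO libraries of growing oocytes, against 14.3 and 2.51 TPM in Gctrl, and had 27.7 and 4.48 TPM in GcKO NGO, against 0.347 and 0 TPM in Gctrl NGO. The difference of Tmem274 did not pass with a pseudocount of 5 or with the 8 P10 libraries (adjusted p = 0.0502 and 0.0616). The NGO difference alone did not pass for Lrrc19 or Tmem274 (adjusted p = 0.126 and 0.0620). Within NGO the 2 libraries of a group were several times apart for the knockouts of Spint4, Psg16 and Tmem274 and for the controls of Serpinb6c, Meiob and Lrrc19. The groups have 2 libraries each, so no test for a single outlying library was made.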

How the results depend on the processing

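Directions of the 103 named genes past the test were never turned by an alternative, and 1489 of 1644 alternative values kept the call. Quantile normalization left no difference for Dppa3 and Dppa5a. Of these genes, 77 kept it whichever GO library was left out and 26 lost it at least once. Fitting only the 4 GO libraries (2 residual degrees of freedom) called 1527 genes, 972 higher and 555 lower. Fitting the 8 P10 libraries called 1555, 1043 higher and 512 lower, and 376 for the difference of effects. Median-of-ratios scaling called 1451 lower and quantile normalization 1446; the cause was not tested. Leaving out 1 GO library gave 1834 to 2375 calls, 1240 to 1558 higher and 594 to 986 lower, with the lone library assumed to vary like the other groups. The log2 differences of Gdf9 and Ooep, neither past the test, turned to -0.19 and -0.24 with median-of-ratios scaling, and leaving out 1 library gave -0.000435 to 0.12 for Ooep. The replicate block called 2701 genes (1777 higher, 924 lower) and ended the named calls of Ubb-ps, Rbbp7 and Hdac1. Voom on recovered reads called 2483. With 2 libraries a group, changes of low transcripts rest on few reads.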

Other observations

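Some gene families outside the lists were counted by symbol after the values were seen, so no test is attached. Of 12 Bex and Tceal genes on the X chromosome, 6 were among the genes described and 5 rose (Bex2, Bex3, Bex4, Tceal8 and Tceal9). All 5 Usp17l genes and all 4 Zscan4 genes described rose, although near-identical copies may share reads. Of 16 genes of the Fbxw15 family of oocyte F-box proteins, 5 fell (Fbxw13, Fbxw15, Fbxw18, Fbxw19 and Fbxw23) and none rose. Of 27 genes described with symbols in the form of histone names, which other genes can share, 9 rose and none fell. Among the 9 were H2az1, the H2A.Z variant, and H1f0, the linker histone H1.0. Of 53 genes with Eif symbols, 9 rose, near the share over all genes, and none fell. Over all genes described, 14.3% were higher and 7.37% lower.

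Heat shock and chaperone genes moved both ways, 11 higher and 4 lower of 52, with Hspa5, Hspa8, Hspd1 and Hspa9 among those that rose. Zinc finger genes with Zfp symbols were near the background, 26 higher and 14 lower of 257. Unprocessed pseudogenes had 42 higher and 10 lower of 140, and processed pseudogenes 124 higher and 45 lower of 1261.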
